A study of Homo sapiens with 12 samples.

Results

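The genes described here are ABTB1, EVI5L, SCAND1, MZT2B, NRGN, DPM3, EGFL7, ALKBH7, CAPS and ABCA5, 10 of the 60483 genes in a table of transcript counts from REC1, a human cell line established from mantle cell lymphoma. They were chosen by their fold changes, because their counts were higher after ibrutinib and SPX5551 together than after DMSO, or than after ibrutinib alone, in the libraries described here. Those differences are therefore given as a description of these genes, with no test. All 10 were among the 14412 genes with enough counts to be tested, and the lowest count of any of them in any library was 37.

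The 4 groups were ibrutinib with SPX5551 (the combination), ibrutinib alone, SPX5551 alone, and DMSO, the solvent control. Samples were taken at 4, 8 and 12 h. Every treatment had a single library at each time, so the 3 times stood in as the replicates of a treatment (n = 3) and the spread includes change over time. Ibrutinib binds covalently to BTK, a kinase downstream of the B-cell receptor, and blocks it, and the study's title presents SPX5551 (pol5551 in the table headers) as an inhibitor of the chemokine receptor CXCR4. All 12 libraries came from a single cell line, and the labels give no doses. Nothing says whether the libraries came from separate cultures, so a p-value here speaks only of the spread among these samples. The study asked what CXCR4 inhibition adds to a targeted agent in B-cell lymphoma cells.

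Library totals ranged from 19336303 to 28934030 counts. Column headers match the sample titles and were followed, but the sample descriptions pair each sample with a column headed by a different treatment. By the descriptions the columns headed as the combination would belong to the DMSO samples, and the median log2 difference of the 10 genes, combination against DMSO, would be -0.71. The summed level of 5 B-cell markers (MS4A1, CD79A, CD79B, PAX5 and CCND1) was 3790 to 4700 counts per 1000000 counts of a library (CPM) after the combination, 4290 to 4670 after ibrutinib, 4120 to 4540 after SPX5551 and 3990 to 4810 after DMSO. Among them PAX5, a transcription factor of B-cell identity, had 290, 336 and 566 CPM at 4, 8 and 12 h after the combination. It had 477, 700 and 633 CPM after ibrutinib, 382, 364 and 360 after SPX5551, and 384, 444 and 693 after DMSO. PAX5 passed as lower after the combination than after ibrutinib (log2 fold change -0.69 ± 0.16, edgeR adjusted p = 0.0221), a call kept in 15 of 23 other settings with the columns as headed. Against DMSO and against SPX5551, 0 of the 5 markers passed. By transcript type, the 8 h combination and 8 h DMSO libraries leaned most to GC-rich transcripts (Spearman correlation of a library's deviation with transcript GC content, across genes, 0.41 and 0.34). The 3 ibrutinib libraries leaned to long transcripts (correlation with length 0.17 to 0.42) and the 3 SPX5551 libraries to short ones (-0.40 to -0.20).

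These genes belong to no single pathway. Several code for small proteins with a known partner. MZT2B is a subunit of the gamma-tubulin ring complex, from which microtubules grow, and DPM3 anchors dolichol phosphate mannose synthase in the membrane of the endoplasmic reticulum, where that enzyme makes the mannose donor for glycosylation. SCAND1 consists of a SCAN domain, by which zinc finger factors pair, without zinc fingers of its own, and ABTB1 carries ankyrin repeats and BTB domains. EVI5L has a TBC domain, the part by which such proteins switch off Rab GTPases of vesicle traffic, and ABCA5 is a lipid transporter of the ABCA family found in lysosomes and late endosomes. ALKBH7 is a mitochondrial member of the AlkB dioxygenases. NRGN (neurogranin) binds calmodulin and is best known from neurons, CAPS (calcyphosine) is a calcium-binding protein abundant in ciliated cells, and EGFL7 is a secreted protein best known from endothelial cells.

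On hg38 (GENCODE release 29) the genes lie on 8 chromosomes, and all are protein-coding. ABTB1 is at chr3:127672935-127680920 on the plus strand, MZT2B at chr2:130181737-130190729 (plus), NRGN at chr11:124739846-124747210 (plus), EGFL7 at chr9:136658856-136672678 (plus), DPM3 at chr1:155139891-155140595 (minus), SCAND1 at chr20:35953617-35959472 (minus) and ABCA5 at chr17:69244311-69327244 (minus). CAPS at chr19:5911707-5915877, ALKBH7 at chr19:6372433-6375251 and EVI5L at chr19:7830233-7864976 share the plus strand of chromosome 19, which holds 7.71% of the tested genes. The stretch from CAPS to EVI5L holds 34 other tested genes. Of these, 2 passed as higher after the combination than after DMSO and 0 as lower, with a median log2 fold change of 0.04. Of all tested genes, 4.16% passed as higher and 5.41% as lower in that comparison.

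RefSeq promoter windows (GRCh38.p14) were found for 9 of the 10, all but ABTB1. The 250 bases before the start are shown for 4 genes, to show how unlike the windows of these genes are. EVI5L, at chr19:7829968-7830217 on the plus strand, has 3 GC boxes and 1 CCAAT box. ALKBH7, at chr19:6372544-6372793 (plus), has 4 CCAAT boxes and no GC box. NRGN, at chr11:124739692-124739941 (plus), has 1 of each. ABCA5, at chr17:69327134-69327383 (minus), has 1 GC box and 1 ETS core in a window with 42 CpG dinucleotides. Capitals mark the GC box GGGCGG, the CCAAT box and the ETS core CCGGAA, each searched on both strands.
EVI5L: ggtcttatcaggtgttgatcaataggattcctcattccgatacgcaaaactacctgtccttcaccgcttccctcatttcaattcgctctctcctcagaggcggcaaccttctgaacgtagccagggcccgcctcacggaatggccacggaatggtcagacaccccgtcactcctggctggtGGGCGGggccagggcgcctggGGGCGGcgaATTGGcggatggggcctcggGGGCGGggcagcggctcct
ALKBH7: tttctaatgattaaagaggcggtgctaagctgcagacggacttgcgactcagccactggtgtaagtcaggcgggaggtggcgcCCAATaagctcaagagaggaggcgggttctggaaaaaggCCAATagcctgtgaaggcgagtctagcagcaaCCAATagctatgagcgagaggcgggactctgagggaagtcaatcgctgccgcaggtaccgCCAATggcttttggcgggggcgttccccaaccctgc
NRGN: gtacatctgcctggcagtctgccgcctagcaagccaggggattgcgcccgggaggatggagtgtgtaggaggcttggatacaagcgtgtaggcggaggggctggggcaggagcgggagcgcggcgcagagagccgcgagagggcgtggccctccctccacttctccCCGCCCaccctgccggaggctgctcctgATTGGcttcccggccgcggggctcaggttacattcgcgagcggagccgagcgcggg
ABCA5: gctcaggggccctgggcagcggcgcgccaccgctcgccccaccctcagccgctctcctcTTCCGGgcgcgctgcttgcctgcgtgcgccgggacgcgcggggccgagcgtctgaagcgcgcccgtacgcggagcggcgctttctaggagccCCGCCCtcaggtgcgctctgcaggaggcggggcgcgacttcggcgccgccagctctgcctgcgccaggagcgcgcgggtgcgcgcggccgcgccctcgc

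A GC box was found in the windows of 5 of the 9 genes (EVI5L, MZT2B, NRGN, EGFL7 and ABCA5), against 42.6% of all 35116 RefSeq windows. A CCAAT box was found for 5 (EVI5L, MZT2B, NRGN, EGFL7 and ALKBH7), against 32.0% of all windows. An ETS core was found for 3 (SCAND1, DPM3 and ABCA5), against 14.5%. The E-box CACGTG (6.34% of all windows), the forkhead core GTAAACA (2.98%), the TATA box TATAAA (10.7%) and the cAMP response element TGACGTCA (1.65%) were found in 0 of the 9. The GC content of the windows ranged from 46.4% in the more distal of the SCAND1 windows to 79.2% for ABCA5, with a median of 58.0% over all windows. A gene counted if any of its windows held the motif, and SCAND1, DPM3 and EGFL7 have an extra window, while the shares are of single windows. Counts and shares are therefore not on the same footing. The boxes of EGFL7 and the ETS cores of SCAND1 lie in only some of their windows. A match describes letters only, and these counts are given with no test.

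After the combination, all 10 genes had more CPM than after DMSO and than after ibrutinib at 4 h, at 8 h and at 12 h. The lowest combination library lay above the highest of all 9 other libraries for 7 of them (EVI5L, SCAND1, MZT2B, NRGN, EGFL7, ALKBH7 and ABCA5), as it did for 2.95% of all tested genes. The exceptions were ABTB1, CAPS and DPM3. On CPM scaled by trimmed means, as used in the main edgeR fit, it held for 5 of the 10 and for 1.85% of all tested genes, since MZT2B and ALKBH7 dropped out. The choice of genes used these differences, so nothing is read from that count.

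**Figure D1:**
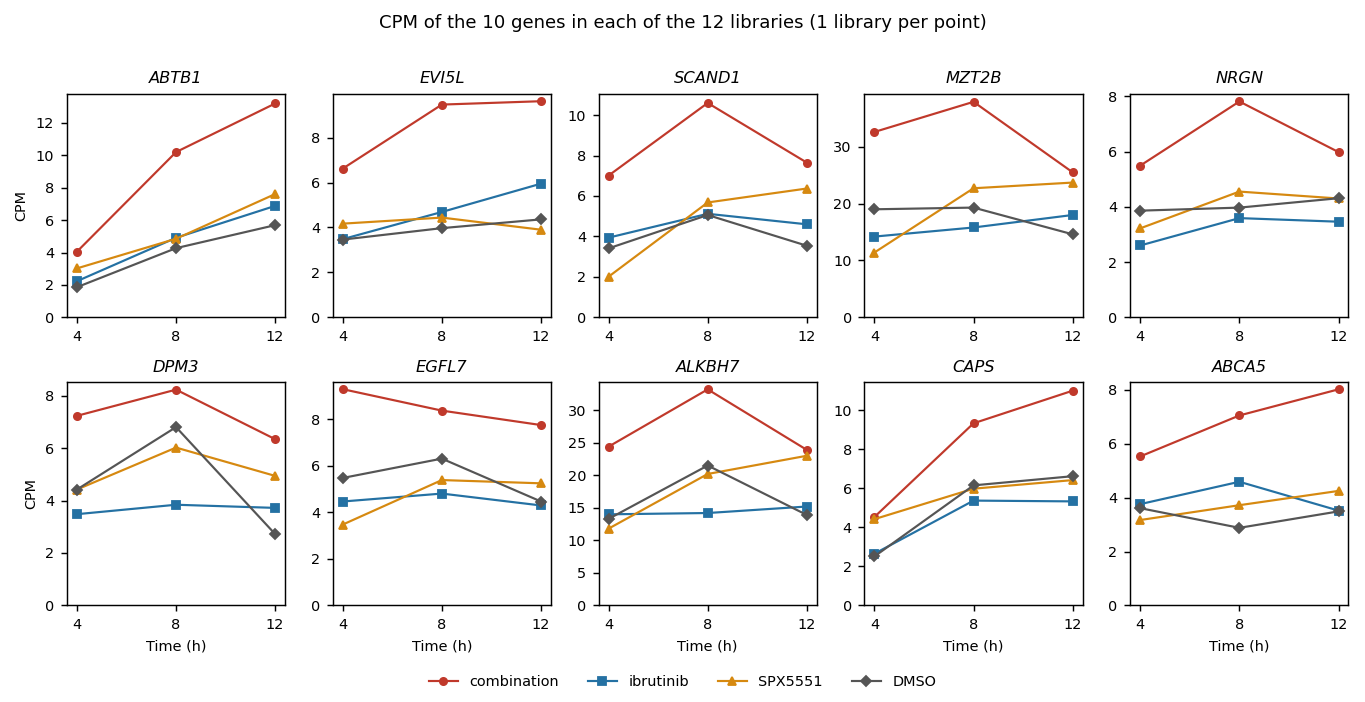
Level of each gene (vertical axis, CPM from 0) against time (horizontal axis, 4, 8 and 12 h) after the combination (red circles), ibrutinib (blue squares), SPX5551 (orange triangles) and DMSO (grey diamonds), with 1 library per point and no error bars because there is 1 library per treatment and time. The red line is the top line in every panel, and it comes close to the SPX5551 line at 4 h for CAPS (4.53 and 4.42 CPM) and at 12 h for MZT2B (25.5 and 23.7 CPM) and ALKBH7 (23.9 and 23.0 CPM).

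The genes of vesicle traffic and lipid transport were EVI5L and ABCA5. EVI5L had 6.62, 9.47 and 9.62 CPM at 4, 8 and 12 h after the combination, 3.48, 4.69 and 5.95 after ibrutinib, 4.17, 4.44 and 3.90 after SPX5551, and 3.46, 3.97 and 4.36 after DMSO. Its 3 combination libraries lay above the other 9, and its single-agent libraries overlapped the range of DMSO. ABCA5 had 5.53, 7.05 and 8.02 CPM after the combination, 3.76, 4.59 and 3.52 after ibrutinib, 3.17, 3.72 and 4.25 after SPX5551, and 3.61, 2.88 and 3.49 after DMSO. Here too no other library reached the lowest combination library, and the gap to DMSO was smallest at 4 h. The log2 fold change, combination against DMSO, was 1.04 ± 0.16 (SE) for EVI5L and 0.95 ± 0.18 for ABCA5.

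Their relatives are described by counts, to be read against the 4.16% of all tested genes that rose and the 5.41% that fell. Of 23 other tested TBC domain proteins, 3 were higher after the combination than after DMSO at an adjusted p under 0.05 (edgeR's quasi-likelihood test, Benjamini-Hochberg over all 14412 genes), 0 were lower and 20 did not pass, with a median log2 fold change of 0.08. TBC1D2, which acts on Rab7, rose by 1.67 ± 0.37 on the log2 scale (edgeR adjusted p = 0.0113) from low counts, with 0.347 to 1.73 CPM over the 12 libraries. TBC1D10C, a regulator of Ras and calcineurin in lymphocytes, and TBC1D7, a subunit of the TSC complex that restrains mTORC1, rose by 0.46 ± 0.14 and 0.39 ± 0.12 (edgeR adjusted p = 0.0477 for both). EVI5, the closest relative of EVI5L, had a log2 fold change of 0.26 ± 0.13 and did not pass. Of 6 tested ABCA transporters of 11 listed, 1 rose (ABCA7, 0.44 ± 0.12, edgeR adjusted p = 0.0339) and 2 fell. ABCA6 and ABCA9, which lie in the ABCA gene cluster of chromosome 17, had log2 fold changes of -0.69 ± 0.10 and -0.77 ± 0.22 (edgeR adjusted p = 0.000796 and 0.0396).

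ABTB1 and SCAND1 code for proteins that bind others. ABTB1 had 4.05, 10.2 and 13.2 CPM at 4, 8 and 12 h after the combination, 2.23, 4.91 and 6.88 after ibrutinib, 3.02, 4.85 and 7.61 after SPX5551, and 1.86, 4.27 and 5.69 after DMSO. It was higher at each later time in all 4 groups, so the 4 h combination library fell inside the range of every other group although it was the highest library of its own time. The 4 h DMSO value rests on 37 counts (exact 95% Poisson interval 26.1 to 51.0, covering counting error only). SCAND1 had 7.01, 10.6 and 7.65 CPM after the combination, 3.94, 5.12 and 4.60 after ibrutinib, 2.01, 5.68 and 6.37 after SPX5551, and 3.41, 5.06 and 3.54 after DMSO. Its combination libraries lay above the other 9, and its lowest library was SPX5551 at 4 h. The log2 fold change, combination against DMSO, was 1.13 ± 0.15 for ABTB1, the highest of the 10, and 0.99 ± 0.23 for SCAND1.

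No change passed among 15 tested BTB adaptors and cullin partners (0 higher, 0 lower, median -0.01), of which the ubiquitin ligase scaffold CUL3 had a log2 fold change of -0.10 ± 0.08. Among 29 tested SCAN domain factors, 2 rose, 1 fell and 26 did not pass, with a median of 0.04, where 9.57% of all tested genes passed in either direction. The zinc finger factors ZSCAN18 and ZKSCAN3 rose by 0.53 ± 0.12 and 0.46 ± 0.13 (edgeR adjusted p = 0.0135 and 0.0351), and ZNF202 fell by 0.39 on the log2 scale (SE 0.08, edgeR adjusted p = 0.00953). ZKSCAN3 is known as a repressor of autophagy genes, and ZNF202 as a repressor of lipid metabolism genes.

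MZT2B, the spindle gene, had 32.6, 37.9 and 25.5 CPM at 4, 8 and 12 h after the combination, 14.2, 15.8 and 18.0 after ibrutinib, 11.4, 22.7 and 23.7 after SPX5551, and 19.0, 19.3 and 14.6 after DMSO. On plain CPM the combination libraries lay above the other 9, but the 12 h combination and 12 h SPX5551 libraries were close and changed places when scaled by trimmed means, and SPX5551 was below DMSO at 4 h and above it at 12 h. Its log2 fold change was 0.78 ± 0.21 against DMSO. Its near copy MZT2A had 28.5, 31.9 and 23.9 CPM after the combination, 15.4, 17.9 and 20.3 after ibrutinib, 12.7, 19.7 and 21.5 after SPX5551, and 17.5, 20.5 and 15.1 after DMSO, a rise of 0.59 ± 0.16 against DMSO (edgeR adjusted p = 0.0354). MZT2B and MZT2A share 21.8% of the 50-base words of the MZT2B transcript, so the counting could move reads between them. SMPD4, on the opposite strand, shares 62.4% of the words of the MZT2B transcript, and whether these include words shared with MZT2A was not counted. SMPD4 had a log2 fold change of 0.03 and did not pass. The labels name a directional library kit but not whether counting used strand. Of the 10 tested partners in the gamma-tubulin ring complex, 2 rose (MZT2A, and TUBGCP6 by 0.33 ± 0.10, edgeR adjusted p = 0.0449), 0 fell, and 8 did not pass, among them MZT1 with 0.00 ± 0.13. Of all tested genes 4.16% rose.

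DPM3 codes for a protein of the endoplasmic reticulum and ALKBH7 for a mitochondrial one. DPM3 had 7.23, 8.23 and 6.34 CPM at 4, 8 and 12 h after the combination, 3.48, 3.84 and 3.72 after ibrutinib, 4.42, 6.02 and 4.94 after SPX5551, and 4.42, 6.80 and 2.72 after DMSO. On plain CPM the combination libraries lay above all ibrutinib and SPX5551 libraries, and the 8 h DMSO library lay above the 12 h combination library. Of all tested genes, 10.4% lay above ibrutinib in this way and 12.0% above SPX5551. Scaled by trimmed means, the 12 h combination library of DPM3 (5.81) also lay below the 8 h SPX5551 library (6.08). ALKBH7 had 24.4, 33.2 and 23.9 CPM after the combination, 14.0, 14.2 and 15.2 after ibrutinib, 11.8, 20.2 and 23.0 after SPX5551, and 13.3, 21.5 and 13.9 after DMSO. On plain CPM its combination libraries lay above the other 9. Scaled by trimmed means, the 12 h combination library lay below the 12 h SPX5551 and 8 h DMSO libraries. The log2 fold change against DMSO was 0.59 ± 0.19 for DPM3 and 0.67 ± 0.18 for ALKBH7.

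DPM1, the catalytic subunit that DPM3 holds, had a log2 fold change of 0.02 ± 0.11 and the regulatory subunit DPM2 of -0.11 ± 0.11, and neither passed. Of 17 tested genes of the dolichol phosphate mannose pathway, 0 rose and 1 fell, the mannosyltransferase ALG3 (-0.42 ± 0.09, edgeR adjusted p = 0.00778), with a median of -0.01. Of 8 other AlkB dioxygenases, 0 rose and 1 fell. This was ALKBH2, which repairs alkylated DNA, with 20.7, 20.8 and 17.4 CPM after the combination and 30.1, 28.3 and 23.1 CPM after DMSO (log2 fold change -0.54 ± 0.10, edgeR adjusted p = 0.00297).

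NRGN, CAPS and EGFL7 are best known from cells other than B cells. NRGN had 5.49, 7.81 and 5.98 CPM at 4, 8 and 12 h after the combination, 2.60, 3.59 and 3.46 after ibrutinib, 3.22, 4.55 and 4.30 after SPX5551, and 3.86, 3.97 and 4.31 after DMSO. Its combination libraries lay above the other 9, and its ibrutinib libraries all lay below its DMSO libraries. The share of all tested genes with ibrutinib below DMSO in this way was not counted, and low ibrutinib values favoured the choice of genes. CAPS had 4.53, 9.33 and 11.0 CPM after the combination, 2.65, 5.37 and 5.33 after ibrutinib, 4.42, 5.98 and 6.42 after SPX5551, and 2.51, 6.15 and 6.62 after DMSO. As for ABTB1, the 4 h combination library overlapped the other groups, here at nearly the level of SPX5551 at 4 h. EGFL7 had 9.28, 8.36 and 7.74 CPM after the combination, 4.46, 4.80 and 4.29 after ibrutinib, 3.47, 5.38 and 5.24 after SPX5551, and 5.47, 6.30 and 4.46 after DMSO, with the combination above the other 9 libraries. The log2 fold changes against DMSO were 0.58 ± 0.16, 0.63 ± 0.16 and 0.57 ± 0.17 for NRGN, CAPS and EGFL7.

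Several defining markers of those other cell types were at or near 0, but not all. CDH5, VWF and KDR of endothelial cells had 1 count each in all 12 libraries together, the platelet genes PF4 and GP9 and the ciliated cell gene CAPSL had 0 in all 12, and the ciliary factor FOXJ1 had at most 0.104 CPM. PECAM1 and ESAM were present, at 18.5 to 44.7 and 2.78 to 6.06 CPM, and so was RSPH1, a radial spoke gene of cilia, at 4.29 to 24.6 CPM. The summed level of the 10 endothelial markers was 27.1 to 48.2 CPM after the combination, 28.1 to 39.1 after ibrutinib, 26.4 to 32.8 after SPX5551 and 22.7 to 35.2 after DMSO. For the 7 ciliated cell markers the sums were 5.65 to 18.0, 5.02 to 18.8, 8.74 to 16.3 and 6.51 to 25.5 CPM in the same groups, nearly all of it RSPH1. The 8 neuron and platelet markers summed to at most 1.61, 1.49, 1.16 and 1.86 CPM, and the 6 T-cell and myeloid markers to 7.32 to 10.8, 6.97 to 10.2, 8.10 to 10.4 and 7.88 to 8.74 CPM. In bulk RNA, fewer cells of a type and less RNA per cell cannot be told apart.

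Among 12 tested genes of calmodulin and its partners, 0 rose and 2 fell, the kinase CAMKK2 (-0.44 ± 0.10, edgeR adjusted p = 0.0120) and the calcineurin subunit PPP3CA (-0.32 ± 0.09, edgeR adjusted p = 0.0407). Among 12 tested genes of the Notch pathway, which EGFL7 can modulate, 1 rose and 0 fell. This was the target gene HES4, with 16.4, 18.8 and 14.0 CPM after the combination and 9.38, 10.8 and 9.74 CPM after DMSO (log2 fold change 0.65 ± 0.19, edgeR adjusted p = 0.0405). Its combination libraries lay above its DMSO libraries, as they did for 9.47% of all tested genes. After removal of the length and GC trend described below, the fold change of HES4 was 0.17 and did not pass (edgeR adjusted p = 0.329).

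Over the 9 lists together, 132 of 143 listed relatives were tested against DMSO, and 9 rose and 7 fell. That is 12.1% past the threshold, against 9.57% of all tested genes, and their median log2 fold change was 0.02, against 0.72 for the 10 genes and 0.015 for all genes. Against ibrutinib, where 5.49% of all tested genes passed, 4 rose (MZT2A, TBC1D7, ZSCAN18 and HES4) and 5 fell (NUS1, ABCA6, CAMKK2, PPP3CA and ZNF202). The count against DMSO depended on single libraries. It was 4 when the 8 h DMSO library was left out, 6 when the 4 h or the 12 h DMSO library was, 8 for the 8 h SPX5551 library, 9 for the 8 h combination or the 4 h ibrutinib library, and 10 for the 4 h combination or the 12 h ibrutinib library. Against ibrutinib it was 0 on leaving out the 8 h combination, the 4 h ibrutinib or the 8 h ibrutinib library, 4 for the 4 h combination library, 5 for the 12 h ibrutinib, 4 h DMSO or 8 h DMSO library, and 17 for the 12 h SPX5551 library. ABCA6 passed against DMSO in 22 of the 23 other settings that keep the columns as headed, ALKBH2 in 21, ZNF202 in 20, MZT2A in 13, and TBC1D7 and TUBGCP6 in 6, all with the same sign. With the columns taken by the descriptions the signs turned, to 0.35 for ABCA6, 0.55 for ALKBH2, 0.19 for ZNF202, -0.59 for MZT2A, -0.08 for TBC1D7 and -0.52 for TUBGCP6.

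**Figure D2:**
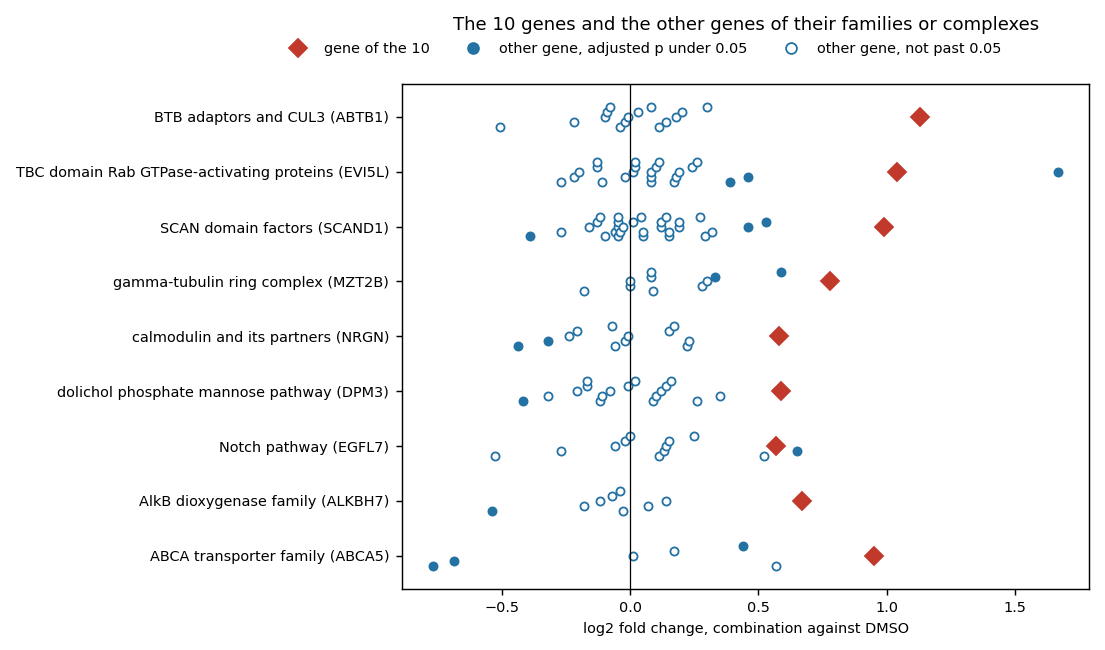
Log2 fold change after the combination against DMSO (horizontal axis) for 9 of the 10 genes (red diamonds) and the other tested genes of each family, complex or pathway (blue circles, filled where adjusted p is under 0.05), 1 list per row, with circles spread vertically only to separate them. In each row the diamond lies to the right of most circles, whose median is 0.02 over all rows. CAPS has no list.

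Across the 10, the log2 fold change after the combination ranged from 0.57 (EGFL7) to 1.13 (ABTB1) against DMSO, with a median of 0.72. It ranged from 0.73 (ABCA5) to 0.96 (MZT2B) against ibrutinib, with a median of 0.86, and from 0.44 (DPM3 and CAPS) to 0.96 (EVI5L) against SPX5551, with a median of 0.71. In edgeR's fit, 9 of the 10 were past the threshold and higher against DMSO (all but DPM3) where 4.16% of all tested genes were. All 10 were against ibrutinib (2.10% of all tested genes), and 6 against SPX5551 (3.27%). These counts restate the choice of genes. Scaling by library size alone in place of trimmed means raised the all-gene calls against DMSO to 1140 higher and 493 lower, against 600 higher and 779 lower, and moved the median of all genes to 0.096.

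The choice followed rank by fold change within filtered lists, and many tested genes outside these lists rose more. Over all 14412 tested genes, the 10 ranked from 75 (ABTB1) to 776 (EGFL7) against DMSO. Against ibrutinib they ranked from 128 (MZT2B) to 327 (ABCA5). Among genes past the threshold whose sign was the same at each time and whose log2 CPM averaged 2 or more, 4 of the first 10 against DMSO and 8 of the first 10 against ibrutinib belong to this group. Just below ABCA5 (0.95, in place 7 against DMSO) was CASP10 (0.95, in place 9), which is not one of the 10. Next to EVI5L (0.83, in place 11 against ibrutinib) stood GADD45B (0.82), which is not one either. In the filtered lists, genes above them that were not among the 10 were MXD4 (1.17), YPEL3 (1.06) and ULK1 (0.99) against DMSO. Against ibrutinib they were ID1 (1.12) and ID3 (0.94).

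The calls of these genes rested on few libraries. Their direction was part of the choice of genes, so nothing is read from its staying the same. Against DMSO the number past the threshold was 3 without the 8 h combination or the 12 h DMSO library, 4 without the 4 h combination library, 5 without the 4 h or the 8 h DMSO library, and 6 without the 8 h SPX5551 library. Against ibrutinib it was 2 on leaving out the 8 h combination or the 8 h ibrutinib library, 3 for the 4 h ibrutinib library and 5 for the 4 h combination library. Without both 8 h libraries that leaned to GC-rich transcripts (combination and DMSO), it was 2 against DMSO and 0 against ibrutinib. The calls over all genes moved too. Against DMSO, 1379 as reported, they numbered 586, 568 and 698 on leaving out the 4, 8 or 12 h DMSO library, and 767, 773 and 853 without the 8, 12 and 4 h combination library. Against ibrutinib, 791 as reported, they numbered 76, 84 and 386 without the 8, 4 and 12 h ibrutinib library, 107 and 212 without the 8 and 4 h combination library, 525 to 547 without the 8 h SPX5551, 8 h DMSO or 4 h DMSO library, and 1244 without the 12 h SPX5551 library. In each of these fits all 10 fold changes remained positive in both comparisons, and their medians stayed between 0.63 and 0.93.

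Averaged over the 3 times, each agent alone differed less from DMSO than the combination did for these genes. Single times are given further below. The DMSO and ibrutinib libraries entered the choice of genes, so these differences are a description, with no test. After ibrutinib alone, 4 of the 10 had a positive log2 fold change against DMSO and 6 a negative one, from -0.38 ± 0.17 (NRGN) to 0.22 ± 0.19 (ABCA5), with a median of -0.18. After SPX5551 alone, 8 were positive and 2 negative, from -0.22 ± 0.18 (EGFL7) to 0.39 ± 0.16 (ABTB1), with a median of 0.14. Of all 14412 genes, 0 passed in edgeR between SPX5551 and DMSO, with 1200 at an unadjusted p under 0.05 and 0 called by DESeq2. With no filter 112 of 32191 genes passed there (13 higher, 99 lower), and without the 4 h combination library 1 did. Between ibrutinib and DMSO 15 passed (0.104%), all lower after ibrutinib. That count was 40 with DESeq2 (2 higher), 216 with no filter (104 higher) and 670 without 12 h (340 higher). It was 3 without the 12 h ibrutinib, 4 without the 4 h DMSO, 6 without the 4 h ibrutinib, 10 without the 12 h DMSO and 29 without the 12 h SPX5551 library. In these settings 0 of the 10 genes were among the calls. Without the 12 h SPX5551 library, 5 of the 10 were positive for SPX5551 against DMSO, with a median of -0.03. The difference between the combination and the sum of both single-agent differences was positive for all 10, from 0.52 ± 0.21 (ABTB1) to 1.08 ± 0.25 (EGFL7), with a median of 0.72. It is a description here, since the combination libraries that chose the genes enter it. Of all genes, 0 passed for that term in edgeR, with 845 at an unadjusted p under 0.05, and DESeq2 called 2. With no filter 32 genes passed for it, 2 of the 10 among them, and without 12 h 109 passed, 4 of the 10 among them.

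**Figure D3:**
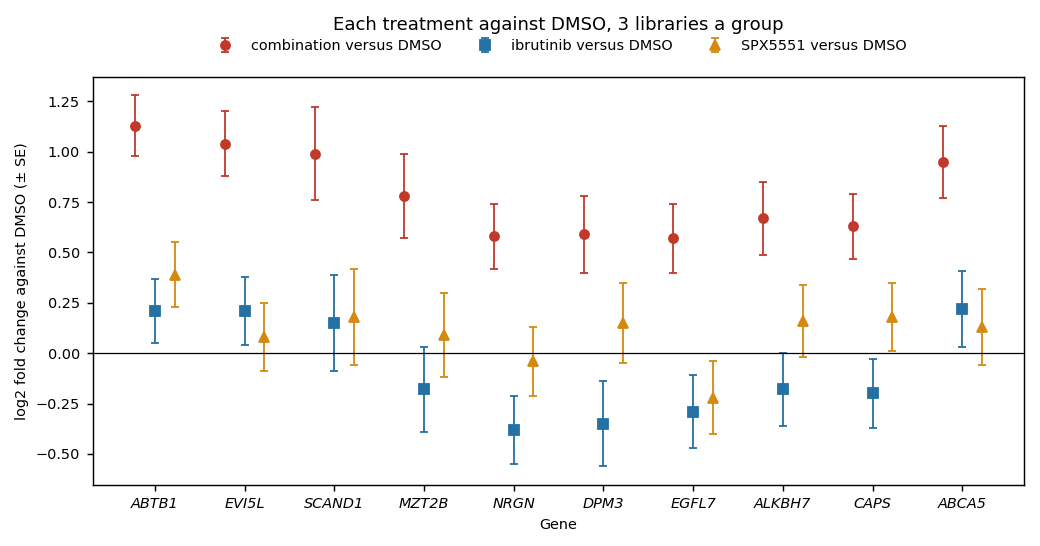
Log2 fold change against DMSO (vertical axis, ± SE from edgeR's fit, 3 libraries a group) for each gene after the combination (red circles), ibrutinib (blue squares) and SPX5551 (orange triangles). The red points lie between 0.57 and 1.13, and the points of the single agents between -0.38 and 0.39.

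The single-agent differences changed with time, as differences in log2 CPM after scaling by trimmed means, which can differ slightly from the plain CPM printed above. For SPX5551 minus DMSO, 3 of the 10 were positive at 4 h (median log2 difference -0.23), 6 at 8 h (0.14) and 8 at 12 h (0.38). SCAND1 had -0.79, 0.14 and 0.86 over these times, MZT2B -0.79, 0.21 and 0.73, EGFL7 -0.70, -0.25 and 0.26, and ALKBH7 -0.23, -0.12 and 0.76. EVI5L and CAPS ran the other way, with 0.21, 0.13 and -0.13 for EVI5L and 0.74, -0.07 and -0.01 for CAPS. For ibrutinib minus DMSO, 4, 3 and 7 of the 10 were positive at 4, 8 and 12 h, with medians of -0.03, -0.21 and 0.19. The combination minus SPX5551 was positive for all 10 at 4 and 8 h (medians 0.74 and 0.72) and for 8 of 10 at 12 h (median 0.38), where MZT2B had -0.03 and ALKBH7 -0.08. The combination minus DMSO had medians of 0.72, 0.90 and 0.86 at 4, 8 and 12 h. These are differences between single libraries, with no replicate behind them.

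SPX5551 against ibrutinib is given as a description, since the ibrutinib libraries entered one of the comparisons that chose the genes and low ibrutinib values favoured that choice. The log2 fold changes ran from -0.13 ± 0.17 (EVI5L) to 0.50 ± 0.20 (DPM3), with 8 positive, 2 negative and a median of 0.23, against a median of -0.008 over all genes. For DPM3 the SPX5551 libraries, at 4.42 to 6.02 CPM, all lay above the ibrutinib libraries, at 3.48 to 3.84 CPM. The share of all tested genes so separated was not counted. With the length and GC trend of each library removed, as described below, the median was 0.15. Without the 12 h SPX5551 library it was 0.04. In edgeR, 0 of the 10 were past the threshold, and 2 had an unadjusted p under 0.05. DESeq2 called 0, and so did limma-trend on the authors' log2 CPM table. Of all tested genes 13.2% passed in either direction, 1896 genes, a number that rested on single libraries. It was 9 without the 8 h SPX5551, 17 without the 8 h ibrutinib, 28 without the 12 h SPX5551, 735 without the 4 h ibrutinib and 1183 without the 4 h combination library. Of the 10, 2 genes were past the threshold without the 4 h SPX5551 library (MZT2B 0.57 and ALKBH7 0.54), and 1 without the 12 h DMSO library (DPM3, 0.51).

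Time was tested over all 4 treatments, which are balanced over it. ABTB1 rose by 1.48 ± 0.14 between 12 h and 4 h (edgeR adjusted p = 5.58e-06) and CAPS by 0.96 ± 0.15 (edgeR adjusted p = 0.000186), 2 of the 10, where 35.9% of all tested genes passed in either direction. In both genes all 4 libraries at 12 h lay above all 4 at 4 h, and the share of all tested genes so separated was not counted. The other 8 had log2 fold changes from -0.22 ± 0.18 (DPM3) to 0.38 ± 0.21 (SCAND1) and did not pass. Between 8 h and 4 h, ABTB1 (1.07 ± 0.14), CAPS (0.90 ± 0.14), SCAND1 (0.66 ± 0.20) and ALKBH7 (0.44 ± 0.15) rose, 4 of the 10, where 26.6% of all genes passed. Between 12 h and 8 h only ABTB1 passed (0.42 ± 0.12, edgeR adjusted p = 0.0443), where 9.08% of all genes did. That share is 1308 genes. The number was 27, 58 and 766 without the 8, 12 and 4 h DMSO library, 30 and 32 without the 8 and 12 h combination library, 273, 867 and 2372 without the 12, 4 and 8 h ibrutinib library, and 396 and 3076 without the 8 and 12 h SPX5551 library. Between 8 h and 4 h, 3832 genes passed, against 2421 without the 4 h combination and 2479 without the 8 h DMSO library.

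The calls of ABTB1 and CAPS at 12 h and 8 h against 4 h held in every alternative that could be run. EVI5L joined them for 12 h against 4 h with library size scaling (0.40) or without the 4 h SPX5551 library (0.42) or the 12 h SPX5551 library (0.41). For 8 h against 4 h, only ABTB1 and CAPS were left without the 8 h combination, 4 h SPX5551, 8 h SPX5551 or 8 h DMSO library. ALKBH7 alone was lost without the 4 h combination, 12 h ibrutinib or 4 h DMSO library, and with the length and GC trend removed (0.23). For 12 h against 8 h, the call of ABTB1 was lost whenever a single library other than the 4 h SPX5551 library was left out, and without the 8 h ibrutinib library DPM3 passed instead (-0.63). DESeq2 also called DPM3 (-0.55) and not ABTB1 (0.41), and limma-trend called neither. Without the 12 h SPX5551 library, 3 genes passed as lower at 12 h (SCAND1, DPM3 and ALKBH7). With the length and GC trend removed, ABTB1 and CAPS had 1.44 and 0.87 between 12 h and 4 h.

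The transcripts of 9 of the 10 genes are GC-rich. Their representative transcripts (GENCODE release 29) hold 57.84% (CAPS) to 68.14% (EGFL7) G and C, which places them between the 78.1 and 99.2 percentile of tested genes, whose median is 48.8%. ABCA5 is the exception, with 33.11% at the 0.5 percentile, although its promoter window printed above is the richest in G and C of the group. Transcript lengths run from 486 bases (DPM3, 2.6 percentile) to 8220 bases (ABCA5, 94.2 percentile). The median is 1846 bases, against 2841 for tested genes, and 7 of the 10 are shorter than that median. Per kilobase of transcript, MZT2B had the highest level of the 10, with a mean of 34.3 CPM per kilobase after the combination and 18.9 after DMSO. ABCA5 had the lowest, with 0.836 after the combination and 0.405 after DMSO.

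**Figure D4:**
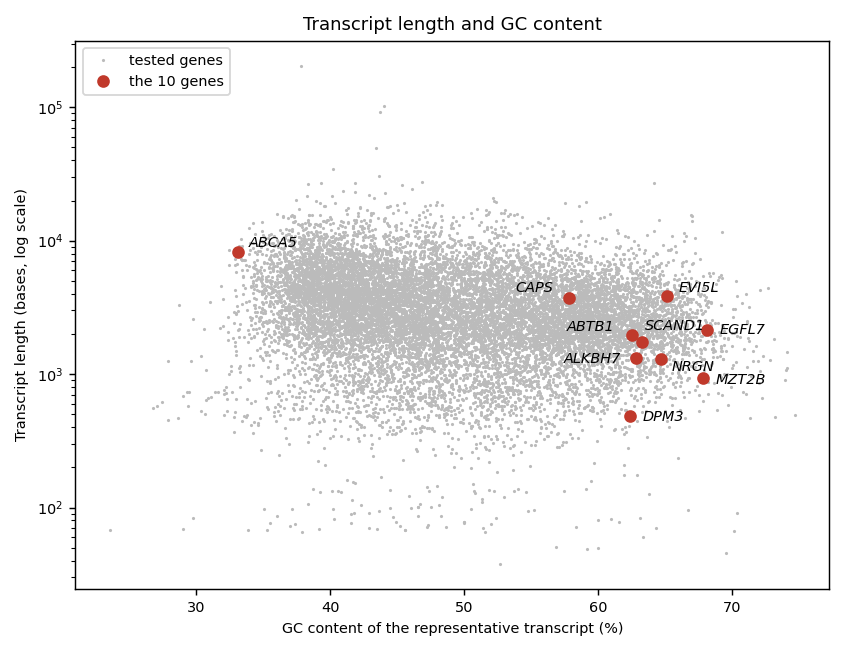
Transcript length (vertical axis, bases, log scale) against GC content (horizontal axis, %) of the representative transcript for the tested genes with both values (14316 grey points) and the 10 genes (red). Of the 10, 9 lie at 57.84% or more, to the right of the tested genes' median of 48.8%, and ABCA5 lies at 33.11% among the long, GC-poor transcripts.

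Libraries differed in how much they favoured GC-rich or long transcripts, and the mean deviation of the 10 genes was highest in the library with the highest GC correlation. In the 4, 8 and 12 h combination libraries that mean deviation was 0.36, 0.82 and 0.56 (log2), beside GC correlations of -0.12, 0.41 and -0.04 and length correlations of -0.03, -0.30 and 0.24. In the DMSO libraries it was -0.37, 0.02 and -0.27, beside GC correlations of -0.14, 0.34 and -0.12 and length correlations of -0.16, -0.31 and 0.38.

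Among the 2334 other tested genes within the GC and length range of the 9 GC-rich genes, 8.44% were higher after the combination than after DMSO at an adjusted p under 0.05, where 4.16% of all tested genes were. Their median log2 fold change was 0.11 and their upper quartile 0.31. Against ibrutinib, 6.30% were higher, with a median of 0.15 and an upper quartile of 0.34.

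A smooth trend on length and GC content was then fitted in each library and removed. The median log2 fold change of the 10 became 0.57 against DMSO and 0.68 against ibrutinib, in place of 0.72 and 0.86, and all 10 remained positive in both. EGFL7 moved most against DMSO, to 0.30 ± 0.14 in place of 0.57 ± 0.17, followed by MZT2B, at 0.52 ± 0.13 in place of 0.78 ± 0.21. CAPS (0.60 in place of 0.63), ABCA5 (0.90 in place of 0.95) and DPM3 (0.53 in place of 0.59) moved least. Against DMSO, 8 of the 10 were past the threshold after removal, with EGFL7 and NRGN (0.40 ± 0.15) falling short and DPM3 passing. Against ibrutinib all 10 were, with ABCA5 at 0.85 in place of 0.73.

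**Figure D5:**
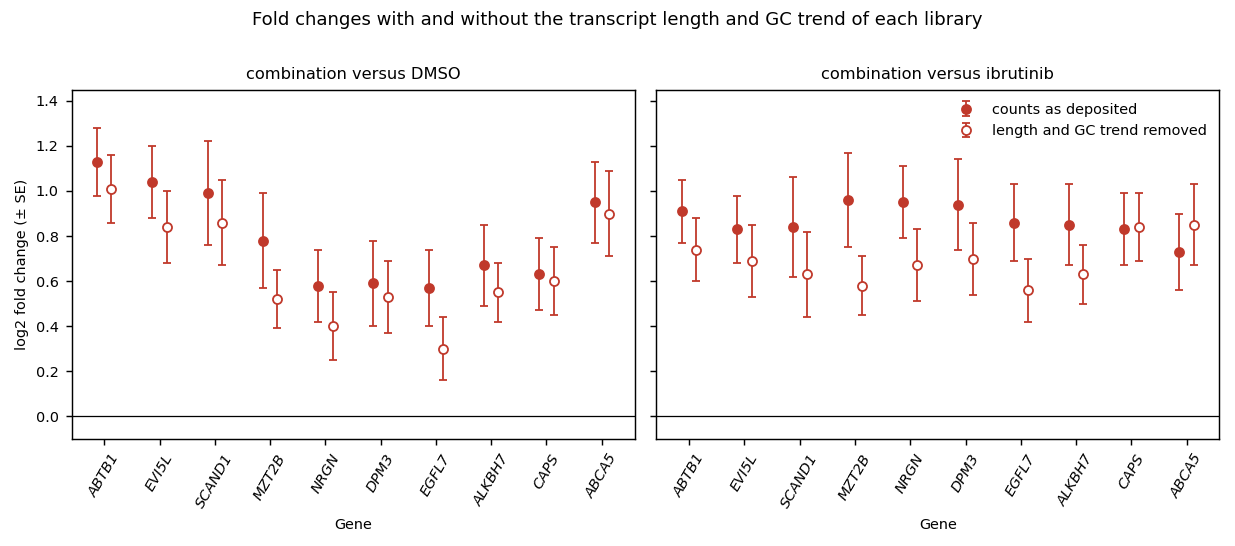
Log2 fold change (vertical axis, ± SE from edgeR's fit) of each gene after the combination against DMSO (left) and against ibrutinib (right), from the counts as deposited (filled circles) and with each library's length and GC trend removed (open circles). Open circles lie below filled ones for all genes but CAPS and ABCA5 on the right, and all lie above 0.

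Genes next to these 10 on the chromosome are given by count. Of 23 tested genes next to or overlapping them, 0 were higher after the combination than after DMSO, and 3 were lower, with a median log2 fold change of 0.03, where 4.16% of all tested genes were higher and 5.41% lower. The lower ones were MGLL (-0.72) and PODXL2 (-0.36), on either side of ABTB1, and ABCA6 (-0.69), the nearest tested gene to the left of ABCA5. Against ibrutinib 2 were higher, CNBD2 (0.81, edgeR adjusted p = 0.0348), which overlaps SCAND1 on the other strand, and AGPAT2 (0.50, edgeR adjusted p = 0.0452), which lies 465 bases from EGFL7. CNBD2 shares 29.3% of the 50-base words of the SCAND1 transcript, so reads counted without strand could be given to either gene. CAPS shares 50-base words with 308 other genes, none of them over 9.92% of its words. ABTB1, EVI5L, NRGN, DPM3 and EGFL7 share none.

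Over the 12 libraries the log2 CPM of the 10 genes varied together to differing degrees. Pearson's r over the 45 pairs had a median of 0.68 and ran from 0.27 (ABTB1 with DPM3) to 0.94 (ABTB1 with CAPS). All points share the treatments and times that chose the genes, so these values are a description. Outside the group, the tested genes with the most similar course over the 12 libraries were CCNDBP1 for ABTB1 (r = 0.987), PPDPF for SCAND1 (0.983), NDUFS7 for MZT2B (0.978), COPE for ALKBH7 (0.974), ABHD3 for CAPS (0.968), HIST1H2BK for EGFL7 (0.966), TRIM3 for EVI5L (0.963), ANAPC11 for DPM3 (0.955), FBXO46 for NRGN (0.936) and SCPEP1 for ABCA5 (0.934). The second closest were KIZ, TMEM8A, PPP1R12C, PLEKHJ1, KMT5C, ZNF414, FZD1, AKR7A2, TEDC2 and PAK1 in the same order, with r from 0.927 to 0.978.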

How the data were processed

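RNA libraries from REC1 cells were made with a directional kit after poly(A) selection, per the labels' protocols, although the molecule is labelled as genomic DNA. The authors deposited a table of whole-number counts per Ensembl gene (60483 genes) and a table of log2 CPM for 14767 of them, whose prior count and scaling they do not state. Reads were aligned to hg38 and BWA was used, per the submitters' processing notes. For the counting tool, the annotation and the strand setting nothing is given in the sources used here.

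Columns were given to samples by their headers. Symbols came from GENCODE release 29, which held 93.8% of the identifiers. Genes were filtered with filterByExpr, scaled with TMM (trimmed mean of M values, factors 0.940 to 1.093) and tested with edgeR 4.0.16 (R 4.3.3, quasi-likelihood F-test, treatment and time as additive terms, all 12 libraries, Benjamini-Hochberg over 14412 genes, threshold 0.05). The common biological coefficient of variation was 0.101. SE was derived from the F statistic as the size of the log2 fold change over the root of F. CPM values are counts divided by the library total, and log2 CPM carries a prior count of 2. The length and GC trend was a spline with 5 degrees of freedom for each property, fitted per library on the longest principal transcript of a gene and used as an offset. Shared sequence was counted in words of 50 bases. The code of the fit was also run on simulated counts, as a check of the code only, and nothing about these genes is read from it. Without molecular identifiers, PCR copies cannot be told from molecules, so intervals cover counting error only. Alternatives used DESeq2 1.42.0, limma-trend (limma 3.58.1), other scaling, no filter, no time term, left-out libraries or times, and the columns named in the descriptions.

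The 10 genes, the lists of relatives and markers, and the tests were chosen with earlier results of these data known. All 10 genes are named. From each list, at most 4 genes that passed against DMSO are named by size of the fold change, with closest partners and the targets of a comparison named in addition after their values were seen. For likeness, the 2 other genes with the highest r are named per gene, and for position the nearest tested gene on each side and any that overlap. Some genes are not reported here.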

Additional observations from a re-analysis of the deposited data

Results flagged for a closer look

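Among the 10 genes, only NRGN and EGFL7 had a difference with ibrutinib of opposite signs with and without SPX5551 at all 3 times. Neither gene passed between ibrutinib and DMSO, and these are differences between single libraries. The share of all tested genes with such signs was not counted. High combination and low ibrutinib values favoured the choice of these genes, and they favour such signs too. In the presence of SPX5551 (combination minus SPX5551), the log2 difference of NRGN was 0.73, 0.73 and 0.34 at 4, 8 and 12 h, and in its absence (ibrutinib minus DMSO) it was -0.61, -0.18 and -0.31. For EGFL7 the differences were 1.37, 0.59 and 0.43 in the presence of SPX5551 and -0.35, -0.43 and -0.06 in its absence. The fitted difference between the effects was 0.99 ± 0.23 for NRGN and 1.08 ± 0.25 for EGFL7 on the log2 scale (SE). Both genes were chosen on combination libraries that enter this difference, so it was not tested for them, and 0 of 14412 genes passed for this term in edgeR (845 at an unadjusted p under 0.05, 2 called by DESeq2, 32 with no filter and 109 without 12 h). With the length and GC trend removed it was 0.75 for both.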

How the results depend on the processing

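With the columns taken as the descriptions name them, the fold change of the combination against DMSO was negative for all 10 genes, DPM3 included. It was -0.73 for ABTB1, -0.96 for EVI5L, -0.81 for SCAND1, -0.68 for MZT2B and -0.61 for NRGN. For EGFL7 it was -0.78, for ALKBH7 -0.52, for CAPS -0.44 and for ABCA5 -0.82. Against ibrutinib 8 of the 10 were positive, and it was -0.04 for NRGN and -0.22 for EGFL7. Under every other alternative run, all 10 genes were higher after the combination in both comparisons, a direction that was part of how they were chosen. Their count past the threshold against DMSO, 9 as reported, was 8 with DESeq2, 8 with limma-trend, 10 with library size scaling, 10 with no filter, 4 without the 4 h time point, 1 without 8 h, 6 without 12 h and 3 to 9 with 1 library left out. Against ibrutinib, 10 as reported, it was 10, 9, 10, 10, 0, 0, 9 and 2 to 10 under the same alternatives. Without time as a replicate block, 0 passed in either comparison.

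The count of relatives against DMSO, 16 as reported, was 0 without the replicate block, 3 without 4 h, 2 without 8 h, 27 without the library pair of 8 h ibrutinib and 12 h SPX5551, 3 without the 8 h combination and 8 h DMSO libraries (an alternative added after the data were seen) and 4 to 18 with 1 library left out. Against ibrutinib, 9 as reported, it was 15 with DESeq2, 15 with no filter, 14 with the trend removed, 19 without 12 h, 4 without that pair, 0 without the block, without 4 h, without 8 h, without the 8 h combination and 8 h DMSO libraries or by the descriptions, and 0 to 17 with 1 library left out. For SPX5551 against ibrutinib the count was 0 to 2 with 1 library left out and 0 otherwise. For 12 h against 4 h, 2 as reported, it was 2 to 3 with 1 library left out. For 8 h against 4 h, 4 as reported, it was 5 with library size scaling, with no filter or without the pair of 8 h ibrutinib and 12 h SPX5551, 3 with the trend removed, 2 without the block, 2 without the 8 h combination and 8 h DMSO libraries, and 2 to 4 with 1 library left out. For 12 h against 8 h, 1 as reported, it was 1 with DESeq2 but another gene (DPM3 in place of ABTB1), 2 with no filter, 4 without the pair of 8 h ibrutinib and 12 h SPX5551, 0 to 3 with 1 library left out, and 0 without the block, without 4 h, without the 8 h combination and 8 h DMSO libraries or with limma-trend. The causes of these shifts were not tested, beyond there being fewer libraries where some were left out.

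With 1 library per treatment and time, a response that differs between times counts as spread. The 10 genes had 37 to 1098 counts per library, which bounds the precision of each single value.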
